A study of Homo sapiens with 6 samples.

Results

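Of the 62754 genes in the count table, 52 protein-coding genes encode the ligands, receptors, antagonists and core transducers of WNT signaling examined here. They were chosen by a rule on gene symbols that uses no measured value, although the rule was written with earlier results of these data known. They comprise 19 WNT ligands, 12 receptors (the 10 Frizzled genes FZD1 to FZD10 with LRP5 and LRP6), 9 secreted antagonists (4 DKK genes, 4 SFRP genes and WIF1), and 4 genes that control receptor turnover (LGR4, LGR5, RNF43 and ZNRF3). The remaining members are 4 cytoplasmic transducers (CTNNB1, AXIN1, AXIN2 and NKD1) and the 4 TCF/LEF transcription factors. RNA-seq was run on 3 libraries of control HEK293 cells and 3 of HEK293 cells with FAM60A knocked out, grown in the same DMEM-based medium. HEK293 is a human embryonic kidney line, and the cell line field of every sample reads HEK293T. The knocked-out cells were kept as a pool after puromycin selection, not as a single clone, and had received Cas9 with guide RNAs against 3 regions of FAM60A, whereas the labels do not say what the controls received. FAM60A (current symbol SINHCAF) encodes a component of a histone deacetylase complex built on SIN3 proteins. WNT signaling was among the pathways the study examined in these cells.

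WNT proteins are lipid-modified secreted ligands that bind Frizzled receptors at the surface of the receiving cell. Together with the coreceptors LRP5 and LRP6 they stop the AXIN-based destruction complex from degrading beta-catenin, which then acts with TCF/LEF factors on target genes. SFRP proteins and WIF1 bind the ligands, and DKK1 binds the LRP coreceptors. The ubiquitin ligases RNF43 and ZNRF3 remove Frizzled receptors unless R-spondins engage LGR4 or LGR5. AXIN2, NKD1, LEF1, RNF43, LGR5 and DKK1 are widely known as transcriptional targets of the pathway, and WNT signaling through WNT4, WNT9B and WNT11 is known for its part in kidney development.

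Total counts per library lay between 88361827 and 93346824. FAM60A itself was counted 11028, 10165 and 12792 times in control replicates 1, 2 and 3 (named controls 1 to 3 here) and 5684, 5793 and 5449 times in the 3 knockout libraries, giving a log2 fold change of knockout over control (log2FC) of -0.85, with SE 0.11 and an adjusted p of 0.00863 in edgeR's quasi-likelihood F-test. Control 3 stood apart from the other controls although its FAM60A count was the highest of all. Among the 52 members it was at least 2-fold from control 1 in 21 genes and from control 2 in 21, and from the knockout libraries in 9 to 12. Controls 1 and 2 differed by that much in 2 members, and the knockout libraries from each other in 2 to 4. Values are therefore given library by library, and beside them those without control 3 where leaving it out changed a call or moved a value. Nothing in the labels says that the libraries came from separate cultures, so p-values measure the spread between these libraries, which may be technical. In bulk RNA, fewer cells of a type and less RNA per cell cannot be told apart.

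Marker genes of HEK293 (8 genes, among them the neurofilament genes NEFL and NEFM, VIM and PAX2) had at least 10 counts in every library. Their summed level was 963, 965 and 636 CPM (counts normalised to library sizes that were scaled by TMM) in controls 1, 2 and 3 and 495, 560 and 477 CPM in the knockout libraries. The 8 markers of MDA-MB-231, the other cell line of the study, summed to 474, 484 and 138 CPM in the controls and to 168, 159 and 154 CPM in the knockout libraries. Of these, S100A6 had 0 to 10 counts in every library, and ANXA1 had 27771, 28335 and 1640 counts in the controls and 1703 to 1858 in the knockout libraries. Summed levels of the 6 epithelial markers lay between 783 and 997 CPM, those of the 6 fibroblast markers between 25.9 and 29.9 CPM, those of the 5 blood cell markers between 0.300 and 1.74 CPM, and those of the 4 liver markers between 0.113 and 0.288 CPM, with 0 to 12 counts for any liver marker. Within the lists, EPCAM had 10669, 10521 and 29052 counts in the controls against 37289 to 38691 with the knockout, KRT8 had 69249, 71970 and 37378 against 28809 to 33595, KRT18 had 13143, 13082 and 7399 against 6031 to 7173, and CD14 had 159, 157 and 19 against 21 to 33. CDH1 had 198, 147 and 1792 counts in the controls against 2164 to 2474 with the knockout. The fibroblast sum held opposite differences: LUM had 244, 223 and 47 counts against 642 to 789, and DCN 0, 1 and 1 against 30 to 33. COL1A1 had 2446, 2526 and 1854 against 1145 to 1401. Marker levels thus differed with the groups and with control 3, and their part in the results on WNT genes was not tested.

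A call is an adjusted p of at most 0.05 (Benjamini-Hochberg over 20992 tested genes). In FAM60A-knockout cells 5 members rose (WNT5B, FZD3, FZD8, LRP5 and LRP6) and 4 fell (DKK3, NKD1, FZD2 and FZD4). These 9 calls were 19.1% of the 47 members tested, against 16.6% of all genes tested, so the share of members lay near the background. Rises took 10.6% of the members and 7.96% of all genes, and falls 8.51% and 8.67%. With a log2FC of 1 or more in size in addition, DKK3 was the single member called, whereas 7.06% of all genes were. Receptors made up 6 of the 9 calls, out of 11 tested, while 1 of 16 tested ligands and 1 of 8 tested antagonists were called. Without control 3 these shares lay closer together, at 11 of 12 receptors, 13 of 16 ligands and 7 of 8 antagonists (65.6% of all genes). The 5 members left out by the filter on low counts (WNT1, WNT7A, WNT8A, FZD10 and DKK4) are given below by their counts.

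Without control 3, 36 of 48 tested members were called (75.0%), against 65.6% of all genes. Of these, 25 were higher in the knockout (52.1% of members, 32.4% of all genes) and 11 lower (22.9% of members, 33.2% of all genes). At a log2FC of 1 or more in size the fit called 18 members (37.5%, against 22.9% of all genes), 14 higher and 4 lower. Over all genes 2851 were called higher and 2114 lower at that size. All 9 members called with 6 libraries were among the 36. The calls also rested on the other libraries: 3 remained without control 1 (WNT5B, FZD3 and DKK3), WNT5B alone without control 2, and FZD3 alone without knockout replicate 2. Without knockout replicate 1 or 3 the edgeR test called 0 members, with 13 members at an unadjusted p under 0.05 in each fit. Over all genes, calls numbered 1049 of 21470 without control 1 and 796 of 21462 without control 2. They numbered 167 of 21873, 503 of 21820 and 189 of 21736 without knockout replicates 1, 2 and 3. With all 6 libraries DESeq2 called 14 members and limma-voom 15, and over all 20992 genes they called 5581 and 3605. All 3 knockout libraries lay above or all 3 below every control in 23 tested members (48.9%, against 41.6% of all genes), 18 of them above. The split by direction over all genes was not counted.

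The ligands as a group had higher summed expression in the knockout. Their levels, divided by the exon length of each gene, summed to 18.6 and 19.7 CPM per kb in controls 1 and 2, to 36.7 CPM per kb in control 3 and to 41.2, 41.7 and 40.4 CPM per kb in the knockout libraries. The median log2FC of the 16 tested ligands was 0.54 with 6 libraries and 1.27 without control 3, beside -0.008 and -0.002 over all genes tested. By knockout level per kb the order was WNT5B (8.29 CPM per kb), WNT3 (6.63), WNT11 (6.28), WNT5A (6.18) and WNT10B (6.15). Over the knockout libraries WNT5A and WNT10B overlapped each other and both WNT3 and WNT11, whereas WNT3 lay above WNT11 in each. WNT7B followed at 2.24 CPM per kb, then WNT8B (1.46) and WNT9A (1.17). In controls 1 and 2 WNT6 had instead taken 21.4% and 23.2% of the ligand sum. Its share was 0.983% in control 3 and between 1.88% and 2.40% in the knockout libraries.

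WNT5B, a ligand mostly linked to beta-catenin-independent signaling, had 1555, 1564 and 2021 counts in controls 1 to 3, against 2921, 3200 and 3030 with the knockout. Every knockout library lay above every control. The log2FC was 0.99 (SE 0.13, edgeR adjusted p = 0.00955), and the adjusted p lay between 1.17e-10 and 0.0739 over 12 alternatives. Its close relative WNT5A had 1241, 1153 and 3721 counts in the controls, against 3712, 3717 and 4084 with the knockout. Control 3 was thus 3.11-fold above the other controls in CPM and close under the knockout libraries. The log2FC of WNT5A was 1.07 (SE 0.46, edgeR adjusted p = 0.156), and without control 3 it was 1.81 (edgeR adjusted p = 7.46e-14).

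The same placing of control 3 was seen for WNT11 and WNT3. WNT11, which is known for branching of the ureteric bud, had 408, 460 and 1340 counts in the controls, against 1261, 1307 and 1308 with the knockout. On the CPM scale the knockout mean was 3.31-fold above controls 1 and 2 and 1.07-fold above control 3. WNT3, a beta-catenin-activating ligand, had 1568, 1534 and 3516 counts against 3055, 3213 and 3037, so that control 3 fell among the knockout libraries. Neither passed the test with 6 libraries (WNT11 0.97, edgeR adjusted p = 0.193, and WNT3 0.65, edgeR adjusted p = 0.219), and both did without control 3, at log2FC values of 1.70 and 1.12.

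WNT10B and WNT7B held control 3 between the groups. WNT10B, known for blocking adipocyte differentiation, had 435, 468 and 1044 counts in the controls, against 1365, 1461 and 1334 with the knockout, with no overlap. WNT7B, known for the growth of the renal medulla, had 167, 171 and 735 counts in the controls, against 936, 1032 and 989 with the knockout, again with no overlap. Their log2FC values were 1.25 (SE 0.36, edgeR adjusted p = 0.0591) and 1.62 (SE 0.61, edgeR adjusted p = 0.116). DESeq2 and limma-voom called both, and without control 3 the log2FC values were 1.74 and 2.67 (edgeR adjusted p = 1.21e-12 and 9.79e-15).

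In WNT8B, WNT16, WNT4 and WNT3A control 3 had the highest level of all 6 libraries. WNT8B had 54, 47 and 525 counts in the controls, against 264, 283 and 267 with the knockout. WNT16 had 39, 40 and 337 against 166, 149 and 154. WNT4, which is required for the formation of nephrons, had 56, 78 and 247 against 153, 168 and 175. For these 3 ligands the knockout libraries exceeded controls 1 and 2 by 5.99-, 4.41- and 2.74-fold in CPM and lay under control 3, at 0.576, 0.517 and 0.745 of its level. Their log2FC values were 0.53, 0.33 and 0.53 with 6 libraries (edgeR adjusted p = 0.715, 0.812 and 0.529) and 2.55, 2.11 and 1.42 without control 3 (edgeR adjusted p = 1.26e-11, 2.91e-09 and 4.48e-07). WNT3A, the ligand commonly used to activate beta-catenin in culture, had 68, 85 and 456 counts against 94, 105 and 93, so control 3 was 5.96-fold above the other controls and the knockout 1.42-fold. Its log2FC was -0.90 with 6 libraries (edgeR adjusted p = 0.421) and turned to 0.47 without control 3 (edgeR adjusted p = 0.0291).

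WNT6 differed in the other direction. It had 667, 756 and 60 counts in the controls, against 114, 151 and 115 with the knockout, so the knockout held 0.198 and control 3 held 0.0843 of the mean level of controls 1 and 2. The log2FC was -1.81 (SE 0.82, edgeR adjusted p = 0.171), or -2.37 without control 3 (edgeR adjusted p = 9.85e-13). WNT9A and WNT2B differed little between libraries. WNT9A had 437, 421 and 492 counts against 420, 370 and 427, and WNT2B had 239, 262 and 324 against 192, 232 and 273, and neither was called with 6 libraries or without control 3. WNT10A, WNT2, WNT9B, WNT8A, WNT7A and WNT1 stayed under 100 counts in every library. WNT10A had 22 to 30 counts in the controls and 32 to 42 in the knockout libraries. WNT2 had 6, 5 and 38 counts in the controls, against 33, 14 and 14 with the knockout, and was called without control 3 (1.99, edgeR adjusted p = 0.00202), as was WNT9B (0.86, edgeR adjusted p = 0.0325). WNT8A had 7, 19 and 56 counts in the controls, against 4, 9 and 1 with the knockout, and WNT1 and WNT7A had between 0 and 9 counts in any library.

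**Figure D1:**
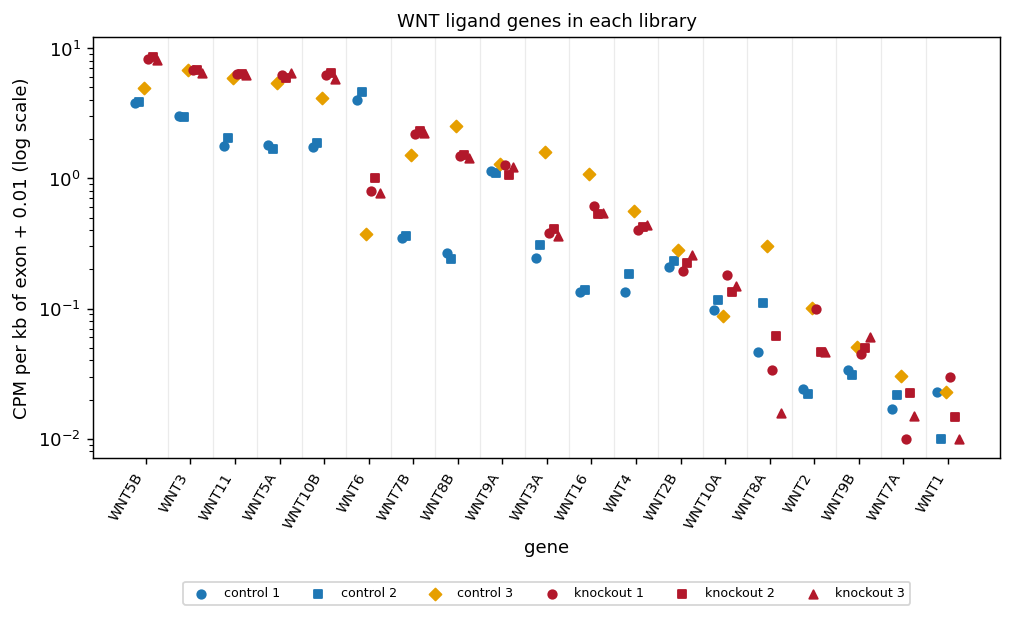
Level of each of the 19 WNT ligand genes in CPM per kb of exon plus 0.01 (log axis), with 1 point per library (blue, controls 1 and 2, orange, control 3, red, the 3 knockout libraries). WNT5B, WNT3, WNT11, WNT5A and WNT10B lay between 5.81 and 8.60 CPM per kb in the knockout libraries, whereas WNT6 was the ligand with the highest level in controls 1 and 2.

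There are 8 ligand genes that lie in neighbouring pairs of the genome (GRCh37), a feature the choice of members did not use. WNT6 (chromosome 2, 219724528 to 219738955) ends 6618 bases before WNT10A (219745574 to 219764303). WNT10A did not share the low counts of WNT6 in control 3 and the knockout. WNT3 (chromosome 17, 44839872 to 44910520) is followed after 46 bases by WNT9B (44910567 to 44964096), read from the opposite strand. WNT9B had 16, 14 and 27 counts in the controls, against 20, 24 and 31 with the knockout, against 1534 or more of WNT3. WNT10B and WNT1 are 6586 bases apart on chromosome 12, and WNT9A and WNT3A 59065 bases apart on chromosome 1. WNT10B had more counts in control 3 and the knockout than in controls 1 and 2 while WNT1 stayed at 0 to 4 counts, and WNT3A was high in control 3 while WNT9A was not. These differences between neighbours were not tested.

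The secreted antagonists held the largest difference among the members. SFRP2, a decoy that binds WNT ligands through a Frizzled-like domain, had 38, 56 and 1700 counts in controls 1 to 3, against 2942, 3580 and 3153 with the knockout. Controls 1 and 2 were low, control 3 was 36.1-fold above them in CPM, and the knockout libraries were 76.3-fold above them and 2.11-fold above control 3. No knockout library overlapped a control. The log2FC was 2.59 (SE 1.37, edgeR adjusted p = 0.229), and 6.22 without control 3 (edgeR adjusted p = 8.17e-19). Limma-voom with 6 libraries called it as well, and the adjusted p over the 12 alternatives reached 0.379. SFRP2 supplied 3.67% and 5.11% of the summed antagonist level per kb in controls 1 and 2, 26.5% in control 3 and 65.6% to 68.6% in the knockout libraries.

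SFRP1 and SFRP5, from the same decoy family, were highest in control 3. SFRP1 had 1039, 991 and 5796 counts in the controls, against 1791, 1826 and 1772 with the knockout, and SFRP5 had 57, 83 and 1582 counts against 205, 224 and 169. Control 3 exceeded the other controls 5.71-fold for SFRP1 and 22.6-fold for SFRP5 in CPM, and the knockout did so 1.97- and 3.17-fold. The sign of both log2FC values depended on that library: SFRP1 went from -0.38 (edgeR adjusted p = 0.731) to 0.95 without it (edgeR adjusted p = 2.25e-09), and SFRP5 from -1.37 (edgeR adjusted p = 0.463) to 1.63 (edgeR adjusted p = 1.32e-07). SFRP4 had 162, 175 and 200 counts in the controls, against 104, 129 and 123 with the knockout. Its groups did not overlap, and it was not called with 6 libraries (-0.44, edgeR adjusted p = 0.145) but was without control 3 (-0.38, edgeR adjusted p = 0.0325). Summed over the family, SFRP levels were 3.24 and 3.45 CPM per kb in controls 1 and 2, 30.8 in control 3 and 23.5 to 26.6 in the knockout libraries.

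DKK3, a divergent member of the Dickkopf family, had 240, 240 and 317 counts in the controls, against 113, 99 and 90 with the knockout. Every knockout library lay below every control. It fell with a log2FC of -1.24 (SE 0.21, edgeR adjusted p = 0.0160), and its adjusted p lay between 1.03e-06 and 0.0981 over the alternatives. Of its exon bases, 47.5% are shared with USP47 on the opposite strand, which had 4378 to 5506 counts in the controls and 3989 to 4392 in the knockout libraries. DKK1, which blocks LRP5 and LRP6, had 196, 214 and 47 counts in the controls, against 81, 64 and 75 with the knockout (log2FC -0.90, edgeR adjusted p = 0.283, and -1.36 without control 3, edgeR adjusted p = 2.23e-07). DKK2 was low in control 3, with 110, 124 and 12 counts in the controls, against 84, 84 and 92 with the knockout. DKK4 had 1 to 4 counts in any library. WIF1, a decoy for WNT ligands, had 142, 148 and 391 counts in the controls, against 399, 466 and 464 with the knockout, without overlap (log2FC 1.12, SE 0.42, edgeR adjusted p = 0.118). DESeq2 and limma-voom called it, as did edgeR without control 3 (1.73, adjusted p = 1.5e-10).

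**Figure D2:**
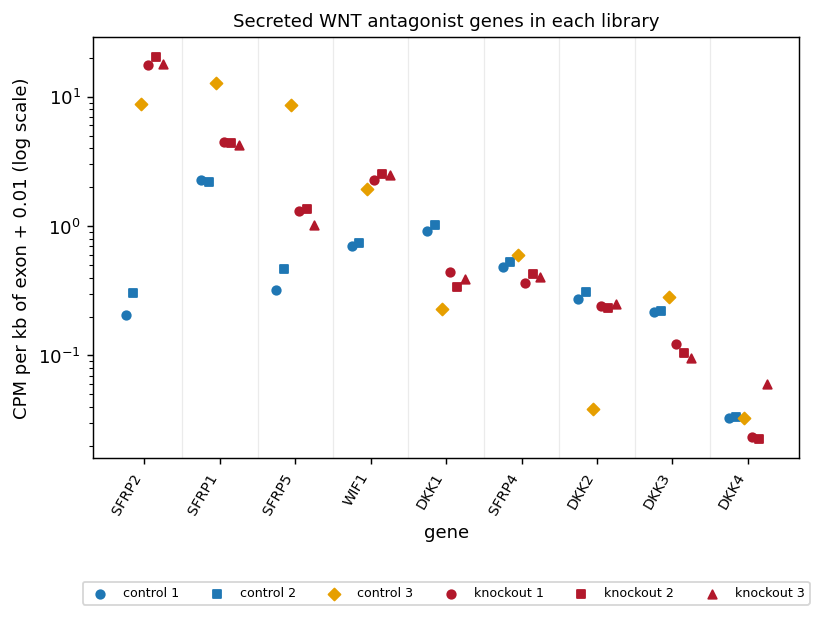
Level of the 9 secreted antagonist genes in CPM per kb of exon plus 0.01 (log axis), with 1 point per library coloured as for the ligands. SFRP2 lay above every control in all 3 knockout libraries, SFRP1 and SFRP5 peaked in control 3, and DKK2 was low in control 3.

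Promoter windows are shown for SFRP2, the member with the largest difference, and for DKK1. Among the members searched, DKK1 was the only 1 whose window held more than 1 TCF/LEF-type match. RefSeq windows of 300 bases (GRCh38.p14, 250 before the start and 50 after it) were found for 35 of the 52 members, 42 windows in all. Each window used was searched on both strands for CTTTG followed by A or T at both of the next positions, as in the TCF/LEF consensus. A match was present in 4 member windows (9.52%), those of DKK1, TCF7, TCF7L2 and WNT3, and in 13.8% of all 35116 windows. No chromosome was left out of the latter, so the 2 shares rest on unlike sets. The 250 bases before the start are printed 5′ to 3′ along the gene, with matches in capitals. They lie at chr4:153789084-153789333 on the reverse strand for SFRP2 and at chr10:52314031-52314280 on the forward strand for DKK1.
SFRP2: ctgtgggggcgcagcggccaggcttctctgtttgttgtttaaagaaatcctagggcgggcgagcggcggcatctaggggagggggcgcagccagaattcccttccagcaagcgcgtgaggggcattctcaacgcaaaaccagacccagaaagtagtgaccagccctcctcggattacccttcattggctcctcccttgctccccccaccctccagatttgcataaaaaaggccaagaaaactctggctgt
DKK1: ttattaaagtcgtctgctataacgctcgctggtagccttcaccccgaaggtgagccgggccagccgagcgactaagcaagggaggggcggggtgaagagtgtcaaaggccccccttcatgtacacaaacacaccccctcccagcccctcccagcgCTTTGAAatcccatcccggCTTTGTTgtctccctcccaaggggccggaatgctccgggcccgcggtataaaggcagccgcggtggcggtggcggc
The matches in DKK1 begin 95 and 76 bases before its start, and the printed SFRP2 window holds none of these letters. DKK1 had its lowest count in control 3 and SFRP2 its lowest in controls 1 and 2. These matches are letters in a window, and no binding was measured.

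The 6 called receptor genes had log2FC values between -0.58 and 0.83, and in several of them control 3 lay with the other controls. FZD3, a receptor known for axon guidance and planar cell polarity, had 3058, 2765 and 2813 counts in the controls, against 4216, 3820 and 4244 with the knockout. The groups did not overlap and the 3 controls lay together. It rose with a log2FC of 0.66 (SE 0.10, edgeR adjusted p = 0.0111, lying between 3.8e-07 and 0.0806 over the alternatives). FZD8 had 2492, 2875 and 4012 counts against 4888, 5128 and 4988, and rose by 0.83 on the log2 scale (SE 0.18, edgeR adjusted p = 0.0299). Its share of the summed Frizzled level per kb went from 11.5% and 13.2% in controls 1 and 2 and 21.9% in control 3 to between 22.7% and 23.4% in the knockout libraries.

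Both coreceptors rose. LRP5, which is also known for its role in bone mass, had 6075, 5704 and 7613 counts in the controls, against 9031, 8831 and 9898 with the knockout, a log2FC of 0.67 (SE 0.13, edgeR adjusted p = 0.0218). LRP6 had 5135, 4389 and 5212 counts against 6017, 5569 and 6764, a log2FC of 0.47 (SE 0.11, edgeR adjusted p = 0.0389). Neither gene's groups overlapped. LRP6 lost its call when libraries were scaled without TMM and when no filter was applied, and the adjusted p reached 0.113 for LRP5, 0.130 for FZD8 and 0.160 for LRP6 over the alternatives, from 2.08e-08, 6.12e-10 and 6.37e-05.

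FZD2 and FZD4 fell. FZD2 had 2528, 2788 and 2448 counts in the controls, against 1558, 1745 and 1560 with the knockout (log2FC -0.52, SE 0.11, edgeR adjusted p = 0.0275). FZD4, which with LRP5 is known for the growth of retinal vessels, had 1252, 1270 and 1306 counts against 708, 791 and 807 (log2FC -0.58, SE 0.12, edgeR adjusted p = 0.0275). In both genes the 3 controls lay together and above all knockout libraries. Of the exon bases of FZD4, 18.9% are shared with PRSS23 on the opposite strand, and whether the counting used strand is not given in the sources used here. PRSS23 had 16826, 17751 and 3981 counts in the controls and 4036 to 4273 in the knockout libraries, so in control 3 PRSS23 was low while FZD4 was at the level of the other controls. Both FZD calls were lost without a filter, and the adjusted p ranged from 2.14e-06 to 0.140 for FZD2 and from 2.53e-07 to 0.156 for FZD4 over the alternatives.

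The other Frizzled genes were not called by edgeR with 6 libraries. FZD5 (3409, 3186 and 2425 counts against 3736, 3792 and 4051) and FZD7 (3694, 3559 and 2704 against 3726, 4039 and 4049) had their lowest CPM in control 3 and no overlap between groups, with log2FC values of 0.52 (edgeR adjusted p = 0.0543) and 0.40 (edgeR adjusted p = 0.0911). DESeq2 and limma-voom with 6 libraries called FZD5, and without control 3 edgeR called FZD5 (0.35, adjusted p = 0.000402) and FZD7 (0.24, adjusted p = 0.00733). FZD1 (2858, 2687 and 2459 against 2726, 2774 and 2856) showed the same order with a log2FC of 0.22 (edgeR adjusted p = 0.167). FZD6, at 57.9, 54.5 and 36.1 CPM in the controls and 54.6, 45.8 and 49.7 CPM in the knockout libraries, and FZD9, at 13.1, 14.9 and 8.80 against 12.1, 12.9 and 11.1 CPM, overlapped between groups. Both were called as lower without control 3 (-0.20 and -0.25, edgeR adjusted p = 0.0374 and 0.0216). FZD10 had 85 and 72 counts in controls 1 and 2, 0 in control 3 and 1, 3 and 2 in the knockout libraries. With the knockout at or under a floor of 3 counts per library, its level was at least 15.7-fold lower than the mean of all controls, or at least 23.5-fold lower than that of controls 1 and 2. The count of 0 in control 3 allows up to 3 counts, and these limits cover counting error only. Without control 3 FZD10 passed the filter and was called (edgeR adjusted p = 2.02e-10).

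**Figure D3:**
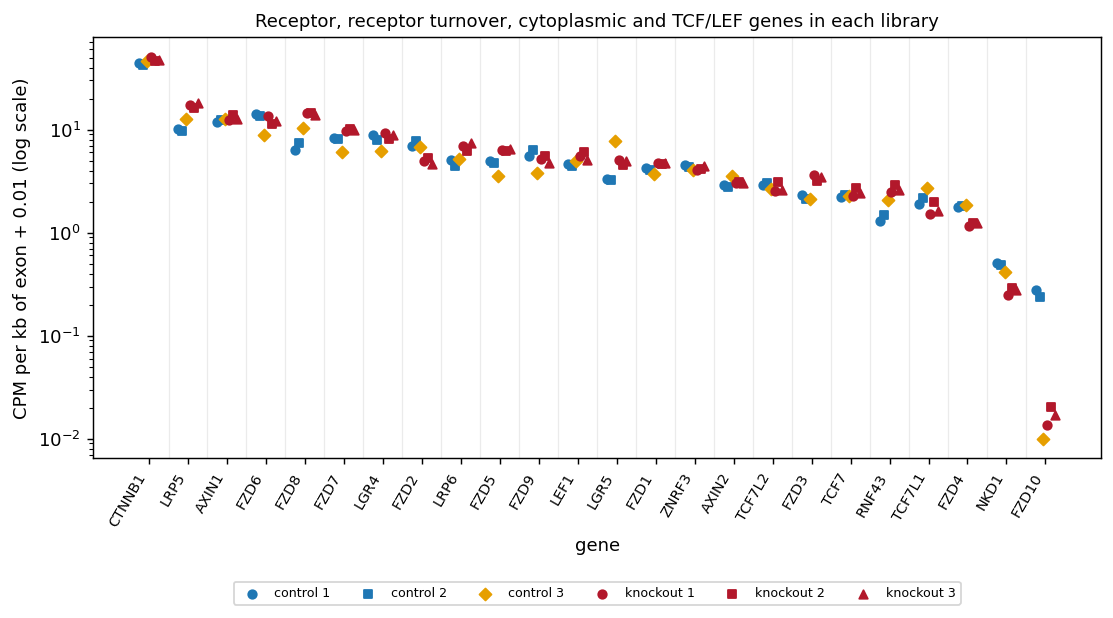
Level of the 24 receptor, receptor turnover, cytoplasmic and TCF/LEF genes in CPM per kb of exon plus 0.01 (log axis), with 1 point per library coloured as for the ligands. CTNNB1 was the most abundant at 44.1 CPM per kb in the controls and 48.2 in the knockout, LRP5 and FZD8 lay higher in the knockout, and FZD10 was near 0 in control 3 and the knockout.

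Among the genes for receptor turnover, RNF43 had 790, 890 and 1273 counts in the controls, against 1314, 1601 and 1433 with the knockout. Its groups did not overlap, with a log2FC of 0.71 (SE 0.21, edgeR adjusted p = 0.0628). DESeq2 and limma-voom called it, as did edgeR without control 3 (0.91, adjusted p = 3.78e-08). A further annotated gene, ENSG00000285897, covers 68.4% of the exon bases of RNF43 on the same strand and had 21 to 32 counts, so the split of reads between them is uncertain. LGR5, the R-spondin receptor known as a stem cell marker, had 1683, 1625 and 3878 counts against 2199, 2091 and 2260, with its highest level in control 3 (log2FC 0.02, edgeR adjusted p = 0.972). Its log2FC was 0.53 without control 3 (edgeR adjusted p = 7.63e-06) and -0.09 when libraries were scaled without TMM. LGR4 (5502, 4802 and 3838 against 4969, 4475 and 4912) and ZNRF3 (3059, 2879 and 2752 against 2358, 2529 and 2698) overlapped between groups in CPM.

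NKD1, an inhibitor of Dishevelled, had 833, 791 and 686 counts in the controls, against 350, 424 and 411 with the knockout. The groups did not overlap, and it fell with a log2FC of -0.81 (SE 0.16, edgeR adjusted p = 0.0226, lying between 7.97e-08 and 0.134 over the alternatives). AXIN2, a scaffold of the destruction complex and the most widely used readout of beta-catenin signaling, had 1446, 1370 and 1775 counts in the controls, against 1327, 1396 and 1388 with the knockout. That is 14.9, 14.3 and 18.4 CPM against 15.8, 15.9 and 15.7 CPM, with a log2FC of -0.004 (SE 0.14, edgeR adjusted p = 0.988). The annotated gene ENSG00000266076 covers 25.3% of the exon bases of AXIN2 on the same strand and had 0 or 1 counts. How reads in the shared bases were assigned is uncertain. CTNNB1, which encodes beta-catenin, had 516, 503 and 539 CPM in the controls and 601, 548 and 551 CPM in the knockout libraries (log2FC 0.13, SE 0.09, edgeR adjusted p = 0.359). AXIN1 had 88.2, 92.9 and 96.1 against 92.8, 104 and 95.3 CPM, within overlapping ranges.

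None of the 4 TCF/LEF genes was called by edgeR with 6 libraries, where an unadjusted p under 0.05 was found for 0 of them. LEF1 had 24.8, 23.7 and 26.3 CPM in the controls and 29.9, 32.2 and 27.0 CPM in the knockout libraries, without overlap (log2FC 0.25, edgeR adjusted p = 0.157). TCF7L1 had 8.39, 9.46 and 11.9 CPM against 6.63, 8.64 and 7.16 CPM (log2FC -0.41, edgeR adjusted p = 0.192). TCF7 had 22.4, 23.4 and 22.9 CPM against 22.9, 27.3 and 24.3 CPM (log2FC 0.12, edgeR adjusted p = 0.475). TCF7L2 had 19.6, 20.5 and 17.9 CPM against 16.9, 20.6 and 17.55 CPM (log2FC -0.07, edgeR adjusted p = 0.721). Without control 3, LEF1 (0.26, edgeR adjusted p = 0.0102) and TCF7L1 (-0.29, edgeR adjusted p = 0.0260) were called. DESeq2 and limma-voom with 6 libraries called 0 of the 4 genes. Of the known pathway targets among the members, edgeR with 6 libraries called NKD1 and not AXIN2, LEF1, LGR5, RNF43 or DKK1, while DESeq2 and limma-voom called RNF43 as well. Without control 3 edgeR called NKD1 and DKK1 as lower and LEF1, LGR5 and RNF43 as higher, and did not call AXIN2.

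**Figure D4:**
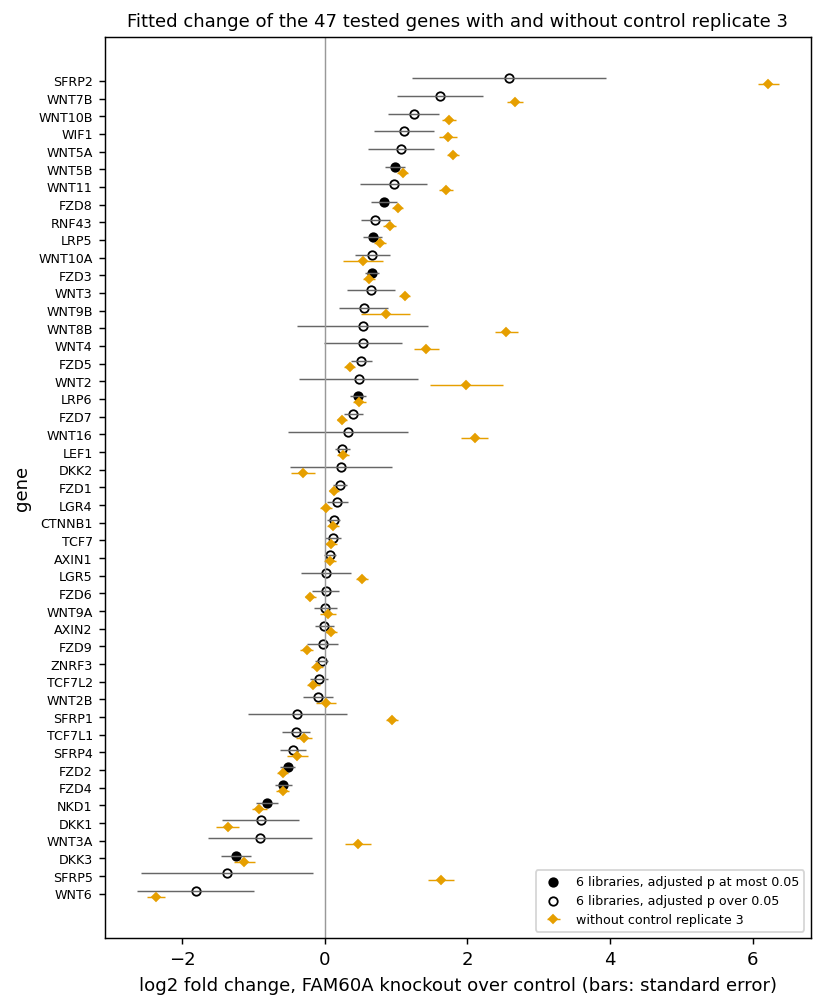
Log2FC of FAM60A knockout over control with its SE for the 47 tested members, ordered by the fit with 6 libraries (filled circles, adjusted p at most 0.05, open circles, over 0.05), beside the fit without control 3 (orange diamonds). SFRP2 went from 2.59 to 6.22, and 7 members changed sign, among them SFRP1, SFRP5 and WNT3A. FZD2, FZD3, FZD4, LRP5, LRP6 and NKD1 lay at nearly the same value in both fits.

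Control 3 was nearer to the knockout mean than to the mean of controls 1 and 2, in log2 CPM, in 30 of 47 tested members (63.8%, against 58.9% of all genes). It was at least 2-fold from controls 1 and 2 in 18 members (38.3%, against 23.0% of all genes), 15 of them higher, with the direction over all genes not counted. Its place differed from gene to gene within a role, and no test by role was run. For WNT3, WNT5A, WNT11 and WIF1 the knockout mean was between 0.983- and 1.26-fold of it. For WNT8B, WNT16 and WNT3A the knockout mean was 0.576, 0.517 and 0.238 of it. In FZD2, FZD3, FZD4, NKD1 and LRP6 control 3 was between 0.845- and 1.095-fold of controls 1 and 2, in FZD8 1.49-fold, and in FZD6 and FZD9 0.643- and 0.629-fold. The genes in these sentences were picked after their values were seen. Both differences are taken against the same control libraries, so they are not independent of each other.

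**Figure D5:**
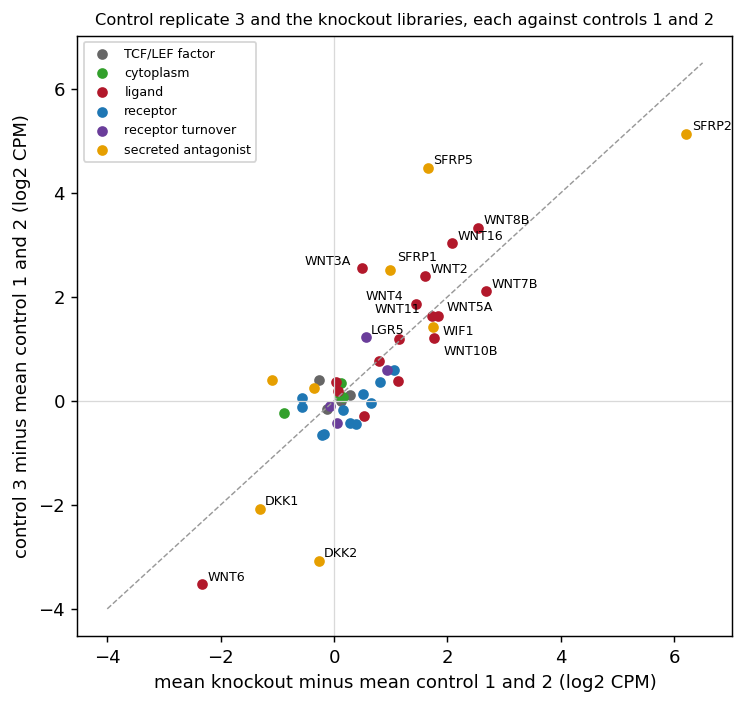
Difference in log2 CPM of control 3 from the mean of controls 1 and 2 (vertical axis) against that of the mean knockout level from the same controls (horizontal axis) for the 47 tested members, coloured by role, with the dashed line where both are equal. WNT5A, WNT11 and WIF1 lie near the line, SFRP5, SFRP1 and WNT3A above it and DKK2 below it, and both axes share controls 1 and 2.

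Of 88 further WNT pathway genes in 5 lists, 82 were tested and 18 called (16.6% of all genes were), 7 higher and 11 lower, with a median log2FC of 0.02. Without control 3, 64 of 83 were called (77.1%, against 65.6% of all genes), 35 higher and 29 lower. In the list of WNT secretion and extracellular regulators 5 of 18 tested genes were called (27.8%, against 16.6% of all genes), 1 higher and 4 lower. The 4 genes that fell did so at a log2FC beyond -1: NOTUM, which removes the lipid of WNT proteins (236, 261 and 414 counts against 115, 118 and 121), RSPO4, an R-spondin (90, 78 and 149 against 12, 25 and 23), LGR6, an R-spondin receptor (27, 24 and 113 against 3, 7 and 6), and APCDD1, a membrane-bound WNT inhibitor (1501, 1491 and 838 against 399, 460 and 374). Their log2FC values were -1.21, -2.24, -3.18 and -1.48, with edgeR adjusted p of 0.0279, 0.0159, 0.0399 and 0.0174. In none of these 4 genes did a knockout library overlap a control. RSPO2 rose by 0.72 on the log2 scale (edgeR adjusted p = 0.04998).

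Among alternative receptors and planar cell polarity genes 1 of 15 tested was called (6.67%, against 16.6% of all genes), SCRIB, which rose (0.52, edgeR adjusted p = 0.0127). The largest fitted differences there were CELSR3 (-0.96, edgeR adjusted p = 0.343), ROR2, a receptor for WNT5A (0.71, edgeR adjusted p = 0.0890), and ROR1 (0.61, edgeR adjusted p = 0.0509). CELSR3 had 3655 counts in control 3 and 698 to 829 in the other 5 libraries. Among cytoplasmic transducers 5 of 19 were called (26.3%, against 16.6% of all genes), 1 higher and 4 lower. The largest fitted differences were those of APC2 (-0.69, edgeR adjusted p = 0.0886), NKD2 (0.68, edgeR adjusted p = 0.184) and DVL1. APC2, a relative of APC, had 499, 563 and 835 counts in the controls, against 334, 367 and 358 with the knockout. NKD2, the paralog of NKD1, had 1635, 1662 and 3593 counts against 3213, 3355 and 3328, and in CPM every knockout library lay above every control. DVL1, DVL2 and DVL3, the Dishevelled genes that carry the signal from Frizzled receptors, all fell, by 0.64, 0.36 and 0.37 on the log2 scale (edgeR adjusted p = 0.00917, 0.0429 and 0.0492), with SIAH1 (-0.63), while APC, a scaffold of the destruction complex, rose (0.52, edgeR adjusted p = 0.0359). DVL1 had 14830, 15608 and 14405 counts in the controls, against 8642, 8815 and 8280 with the knockout. DVL2, DVL3, SIAH1, APC, SCRIB and RSPO2 fall outside the rule for named genes and were chosen after their values were seen.

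In a list of nuclear factors of the pathway 5 of 16 tested genes were called (31.2%, against 16.6% of all genes), 2 higher and 3 lower. The 3 lower genes were all of the TLE family, so the falls do not stand for the list as a whole. TLE5 had 12465, 14306 and 10613 counts against 5522, 6260 and 5502, and TLE3 had 22965, 21754 and 15132 against 8766, 10333 and 10188. They fell by 0.96 and 0.88 on the log2 scale (edgeR adjusted p = 0.00993 and 0.0220). TLE1, named after its values were seen, fell by 0.40 (edgeR adjusted p = 0.0453). TLE2 was not called (-1.08, edgeR adjusted p = 0.191), with 1415 counts in control 3 and 283 to 473 elsewhere. Among commonly used beta-catenin target genes 2 of 14 tested were called (14.3%, against 16.6% of all genes), both higher, JUN and TNFRSF19 (0.87 and 0.998, edgeR adjusted p = 0.00404 and 0.0276), both named with their values already known. SNAI2 (320, 310 and 39 counts against 58, 77 and 45), FOSL1 (1003, 1087 and 164 against 218, 283 and 245) and BMP4 (279, 311 and 855 against 951, 1017 and 852) had the largest fitted differences, at -1.74, -1.44 and 1.12, and none was called with 6 libraries (edgeR adjusted p = 0.1502, 0.168 and 0.134). MYC, also named after its values were seen, had 1900, 2021 and 20015 counts in the controls, against 9470, 11434 and 9546 with the knockout (log2FC 0.50, edgeR adjusted p = 0.731, and 2.496 without control 3, edgeR adjusted p = 1.62e-15).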

How the data were processed

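Poly(A) RNA from 3 control and 3 FAM60A-knockout libraries was sequenced with strand-specific preparation. The authors deposited raw, unnormalized counts for each Ensembl gene. Their methods name Trimmomatic and Salmon on hg38, the submitters' processing notes name STAR 2.7.10b, featureCounts 2.0.0 and hg38, and the extraction text names hg19. The annotation release and strand setting are not given in the sources used here. Of 62754 genes, 60878 matched a symbol, and positions and exon lengths came from GENCODE on GRCh37.

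Libraries were grouped by their titles. The whole table was fitted with edgeR 4.0.16 (R 4.3.3): TMM, filterByExpr with a minimum count of 10, and a two-sided quasi-likelihood test, with Benjamini-Hochberg adjustment over 20992 genes. Standard errors are the absolute log2FC over the square root of F. An exact permutation test of 3 against 3 libraries cannot go below p = 0.1 and was not used for members. Log2 CPM used a prior count of 2. On simulated counts for 20992 genes the fit recovered 200 of 200 genes changed by 3 on the log2 scale, with 8 false calls. The simulation used a single dispersion of 0.0854 for all genes and no outlying control. It therefore does not show how smaller differences, or data with a library like control 3, are called. Alternatives were DESeq2 1.42.0, limma-voom 3.58.1, library size without TMM, other filters, leaving out each library, and a block for replicate number. Members with at least 100 counts in a library were described library by library. Of each further list, called genes with a log2FC of 1 or more in size were named, otherwise the 3 largest differences. Members and lists were chosen with earlier results of these data known. Every pair of libraries differed beyond counting noise (chi-square per degree of freedom of 14.9 or more), so none was counted as a repeat.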

Additional observations from a re-analysis of the deposited data

How the results depend on the processing

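Of 12 alternatives, the choice of libraries changed the counts most. Members called numbered 9 with 6 libraries, 14 with DESeq2, 15 with limma-voom, and 0 to 36 without 1 library (36 without control replicate 3). Members called at a log2FC of 1 or more in size numbered 1, then 4, 5, and 0 to 18. Further pathway genes called numbered 18, then 32 with DESeq2, 10 without a filter, and 1 to 64 without 1 library. Of all genes, 3491 were called, then 5581 with DESeq2, 3605 with limma-voom, and 167 to 14221 without 1 library.

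The labels give replicate numbers but do not say that they pair the samples. Deviations of same-numbered libraries from their group means correlated at 0.01, 0.031 and -0.036. Control 3 weighs heavily on the control means, so these values cannot exclude a pairing. With replicate number as a block, edgeR called 0 members, with 18 at an unadjusted p under 0.05, 0 at a log2FC of 1 or more in size, 2 further pathway genes and 407 genes in all.

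Library size without TMM moved the median of all genes by -0.109. It turned the log2FC of WNT9A to -0.102, FZD6 to -0.0957, LGR5 to -0.0858 and AXIN1 to -0.0323. DESeq2 turned WNT9A to -0.0146 and FZD6 to -0.0098. Limma-voom turned WNT9A to -0.081, SFRP1 to 0.0415 and SFRP5 to 0.0787. The block turned FZD9 to 0.00391, SFRP1 to 0.187, SFRP5 to 0.432 and AXIN2 to 0.00532. Other filters turned AXIN2 to 0.00181 (none) and 0.00216 (at least 10 counts in every library). The causes were not tested.

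Without 1 library at a time, signs also turned within these ranges: WNT2B -0.212 to 0.0191, WNT3A -1.34 to 0.471, WNT9A -0.0446 to 0.086, DKK2 -0.308 to 0.663, WNT16 -0.129 to 2.11, FZD9 -0.249 to 0.133, WNT2 -0.0818 to 1.99, SFRP1 -0.779 to 0.949, FZD6 -0.199 to 0.111, SFRP5 -1.92 to 1.63, LGR5 -0.201 to 0.526 and AXIN2 -0.0764 to 0.0856. The 9 members called with 6 libraries kept their direction under every alternative run. Counts under about 100 limit what WNT1, WNT2, WNT7A, WNT8A, WNT9B, WNT10A, FZD10 and DKK4 can show.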
